A study of Mus musculus with 6 samples.

Results

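The genes described here are 38 mouse transcripts that mark T cells, natural killer (NK) cells and B cells. They were taken by symbol from a list of lymphocyte genes that was chosen with earlier results of these data known. The same holds for the other gene lists below. Shares of listed genes set beside shares of all genes are therefore description and not independent support. All members were found among 32285 gene IDs of whole-kidney RNA-seq. Of the 38, 36 were among the 15955 genes that passed the filter on low counts. The T set holds 21 genes, the NK and cytotoxic set 7, and the B set 10. The kidneys came from 6 female mice of 100 weeks, 1 library per mouse, and every mouse carried some load of a mutation in TrnE, which encodes the mitochondrial tRNA for glutamate. Load is given in the labels per mouse, as a percentage. Low-load 1 to 3, the controls, had loads of 10%, 5% and 15%, and high-load 1 to 3 had loads of 75%, 75% and 80%. The sources used here do not give the strain, the origin of the mutation or the cell types that carry it, and the controls are not free of the mutation. Levels are CPM, counts scaled by library size and TMM factors to a common library total, and a log2 fold change is high load over low load from edgeR.

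A T cell reads peptides on MHC molecules with a receptor made of an alpha and a beta chain, which signals through the CD3 chains, the kinase Lck and the adaptor Lat. NK cells and cytotoxic T cells kill with perforin and granzymes. B cells carry an immunoglobulin receptor that signals through CD79 and become plasma cells that secrete antibody. A kidney holds few lymphocytes in its interstitium, and they can gather there with age and injury.

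Total counts were 17449270 to 18865997 per library, and low genes rest on few of them, as Cd8b1 with 13 to 59 counts per kidney. The 11 kidney markers that were listed, such as Umod and Aqp1, all passed the filter. A pair of libraries stood apart. High-load 1 had a TMM factor of 1.14 against 0.944 to 0.997 in the others and the lowest summed level of 13 proximal tubule genes, at 4795 CPM against 9597 to 18561 CPM. Low-load 2 had 2007 CPM over 8 red cell and platelet genes against 85.7 to 337 CPM. The counts of lymphocyte genes below are therefore also given without these libraries.

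Lymphocyte transcripts were scarce in every kidney and mostly more abundant at high load. The 38 genes took 0.0172, 0.00953 and 0.0132% of all counts in low-load 1 to 3 and 0.0717, 0.0275 and 0.0162% in high-load 1 to 3, and low-load 1 lay above high-load 3. Of the 36 tested genes, 35 had a fold change above 1, with Gzmb as the exception, against 50.9% of all genes tested. Their median log2 fold change was 1.15, beside 0.01 over all genes tested. The T set had a median of 1.03, the NK set 0.93 and the B set 2.09. Most of these genes rose and fell together from kidney to kidney, so counts of genes are not counts of separate observations. In bulk tissue, more cells of a type and more RNA per cell cannot be told apart.

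In edgeR's quasi-likelihood test with Benjamini-Hochberg adjustment, 0 of the 36 genes had an adjusted p under 0.05, where 0.0188% of all genes did. The smallest adjusted p was 0.102, of Tcf7. At an unadjusted p under 0.05, 17 of the 36 were higher, 13 in the T set, 1 in the NK set and 3 in the B set, against 14.0% of all genes. By the same rule 0 were lower, against 10.2%. In 10 of the 36 all 3 high-load kidneys lay above all 3 low-load kidneys, against 17.1% of all genes, and in 0 all lay below, against 15.8%. The 10 were Cd3d, Cd8b1, Cd27, Thy1, Lck, Lat, Tcf7 and Ptpn22 of the T set and Cd79a and Ltb of the B set. DESeq2 called 5 higher at its adjusted p under 0.05, namely Thy1, Lck, Lat, Tcf7 and Ltb, against 6.70% of all genes, and limma-voom called 0. At an unadjusted p under 0.05 DESeq2 had 25 higher, against 13.7% of all genes, and limma-voom 11, against 13.0%.

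The kidneys of a group were far from alike. Among the 36 tested genes, high-load 1 exceeded every low-load kidney in 34, high-load 2 in 32 and high-load 3 in 10. High-load 1 had the highest value of all 6 kidneys in 29 of the 36, and low-load 2 the lowest in 31. Without high-load 1, 8 genes were higher at an unadjusted p under 0.05 (6 of the T set and 2 of the B set), against 10.6% of all genes, and 10 did not overlap, against 20.7%. Without low-load 2, 5 of 38 tested genes were higher at that p (4 of the T set and 1 of the B set), against 9.84%. In that comparison 11 did not overlap, against 21.5%. Without both libraries, 5 of 36 were higher at that p (Thy1, Lck, Tcf7, Cd79a and Ltb), against 9.08%, and 1, Gzmb, was lower, against 7.71%. In that comparison of 4 kidneys 11 genes did not overlap, against 26.0% of all genes. High-load 3 was the lowest of the high-load kidneys in all 36 tested genes. Without high-load 3, 38 genes were tested. Of these, 32 were higher at that p, against 12.0%, and 32 did not overlap, against 21.4%. The count at that p was 10 of 37 tested without high-load 2, against 15.9%, and 18 of 38 without low-load 1, against 11.2%. Without low-load 3 it was 6, against 9.38%. In the same order 10, 20 and 11 did not overlap, against 25.4, 21.9 and 20.5%.

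**Figure D1:**
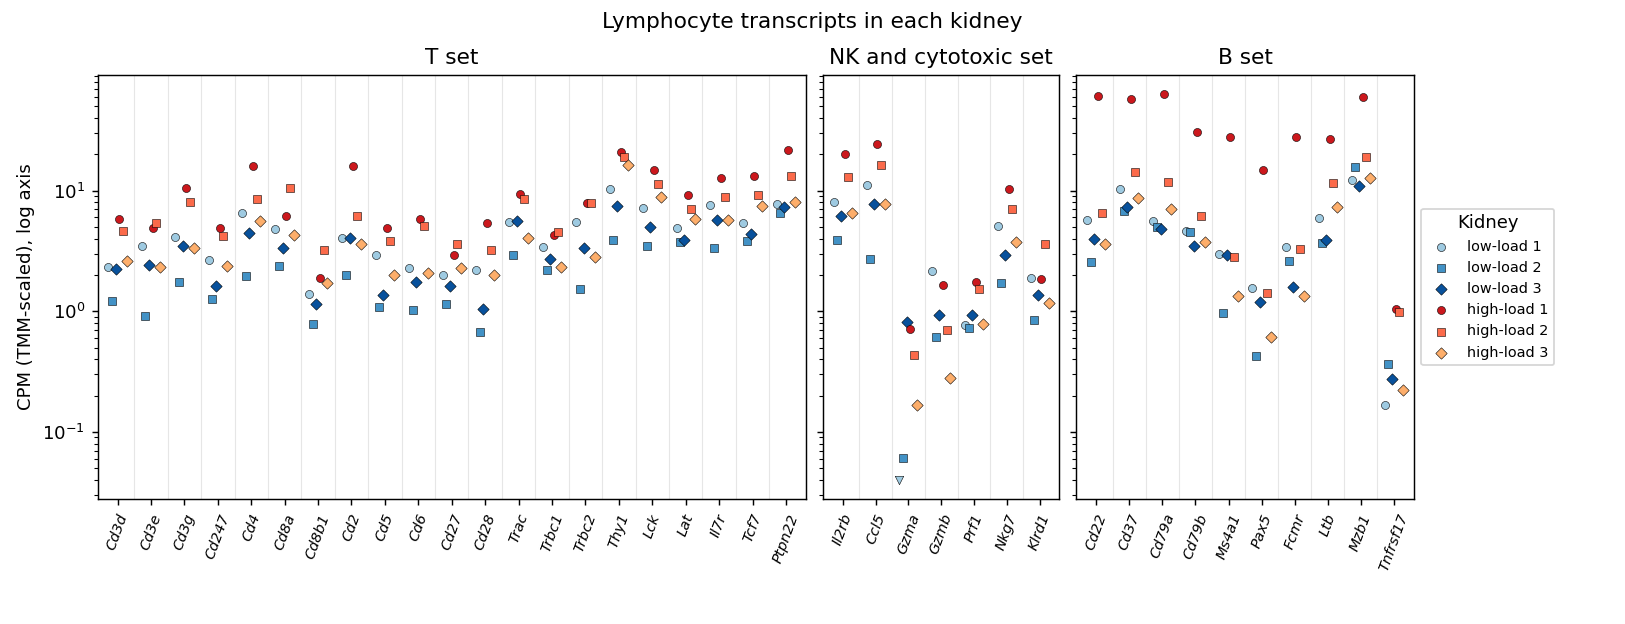
CPM scaled with TMM factors (log axis) of the 38 lymphocyte genes in each of the 6 kidneys, with the T, NK and cytotoxic, and B sets in separate panels; blue points are low-load and red to orange points high-load kidneys, and the downward triangle marks Gzma in low-load 1, which had 0 counts. In the B set high-load 1 lies far above the other 5 kidneys for Cd22 (60.5 CPM), while Cd3d of the T set was nearer in high-load 1 and high-load 2 (5.81 and 4.61 CPM).

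RefSeq promoters (GRCm38.p6, 250 bases before to 50 after the start) were matched for 23 of the 38 genes, as 26 windows. They are shown for genes of each set, 4 of whose groups did not overlap (Cd3d, Lck, Lat and Cd79a) and Nkg7 for the NK set. Capitals mark matches to AGGAAG, a core that ETS factors bind, and to TGTGGT, a core that RUNX factors bind. Both strands were searched, and a match on the opposite strand is printed as its reverse complement. Sequences run 5′ to 3′ in the direction of the gene.
Cd3d, chr9:44981536-44981835, plus strand: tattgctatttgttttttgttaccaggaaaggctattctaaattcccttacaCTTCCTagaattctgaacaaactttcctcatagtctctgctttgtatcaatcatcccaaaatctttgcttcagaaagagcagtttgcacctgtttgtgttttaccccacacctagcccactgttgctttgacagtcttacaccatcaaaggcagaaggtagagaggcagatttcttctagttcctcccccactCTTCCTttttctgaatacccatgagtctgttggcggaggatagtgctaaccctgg
Lck, chr4:129573592-129573891, minus strand: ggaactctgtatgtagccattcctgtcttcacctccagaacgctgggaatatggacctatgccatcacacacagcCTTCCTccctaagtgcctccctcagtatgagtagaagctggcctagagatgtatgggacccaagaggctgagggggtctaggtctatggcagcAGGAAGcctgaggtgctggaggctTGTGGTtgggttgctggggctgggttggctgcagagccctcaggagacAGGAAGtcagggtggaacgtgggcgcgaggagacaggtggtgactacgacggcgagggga
Lat, chr7:126369519-126369818, minus strand: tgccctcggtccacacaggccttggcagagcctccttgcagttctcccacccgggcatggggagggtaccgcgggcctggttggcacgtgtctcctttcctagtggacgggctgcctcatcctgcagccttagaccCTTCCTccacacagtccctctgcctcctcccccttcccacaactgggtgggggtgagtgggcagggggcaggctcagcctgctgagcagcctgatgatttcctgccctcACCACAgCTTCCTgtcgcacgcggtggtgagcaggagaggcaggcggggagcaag
Nkg7, chr7:43436888-43437187, plus strand: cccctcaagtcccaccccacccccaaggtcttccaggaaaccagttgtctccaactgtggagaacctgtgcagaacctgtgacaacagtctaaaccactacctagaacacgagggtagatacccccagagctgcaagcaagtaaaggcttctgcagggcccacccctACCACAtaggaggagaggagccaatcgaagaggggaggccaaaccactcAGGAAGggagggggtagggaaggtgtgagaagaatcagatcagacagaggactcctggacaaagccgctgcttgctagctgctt
Cd79a, chr7:24897247-24897546, plus strand: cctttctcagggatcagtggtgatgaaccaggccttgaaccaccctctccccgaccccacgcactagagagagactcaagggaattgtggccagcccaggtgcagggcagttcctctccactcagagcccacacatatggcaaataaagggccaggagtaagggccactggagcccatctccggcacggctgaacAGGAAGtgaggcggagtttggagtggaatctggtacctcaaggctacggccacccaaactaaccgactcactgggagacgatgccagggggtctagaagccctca
The ETS core was present in 15 of the 26 windows (57.7%) and in 35.4% of all 32851 promoters in the table, in 10 of 15 T, 2 of 4 NK and 3 of 7 B windows. The RUNX core was present in 9 of 26 (34.6%) against 16.8%, in 4 of 15 T, 4 of 4 NK and 1 of 7 B windows. The interferon response core GAAANNGAA, searched on both strands, was in 2 of 26 (7.69%) against 8.56%. Its letters can overlap those of the ETS core. Each window shown above holds the ETS core, but these windows were picked for display and give no share. The windows of Tcf7 and Cd27, whose groups also did not overlap, hold neither the ETS nor the RUNX core. Another Lck window, chr4:129558323-129558622, holds 1 ETS core and 0 RUNX cores. These matches describe letters in the window and not binding.

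The CD3 chains carry the signal of the T cell receptor, and Cd3g, Cd3d and Cd3e lie side by side on chromosome 9, where the starts of Cd3g and Cd3d are 1355 bp apart on opposite strands. Cd3d (ENSMUSG00000032094, chromosome 9, 44981786 to 44987339, plus strand, mm10) was at 2.33, 1.22 and 2.23 CPM in low-load 1 to 3 and 5.81, 4.61 and 2.62 CPM in high-load 1 to 3. It was the only CD3 chain whose groups did not overlap (log2 fold change 1.17, SE 0.39, edgeR adjusted p 0.150). Cd3g (ENSMUSG00000002033, chromosome 9, 44969572 to 44980431, minus strand) was at 4.16, 1.76 and 3.49 CPM in low-load 1 to 3 and 10.5, 8.03 and 3.34 CPM in high-load 1 to 3, with low-load 1 and low-load 3 above high-load 3 (log2 fold change 1.21, SE 0.49, edgeR adjusted p 0.194). Cd3e (ENSMUSG00000032093, chromosome 9, 44998740 to 45009627, minus strand) was at 3.49, 0.911 and 2.40 CPM against 4.87, 5.37 and 2.34 CPM, where high-load 3 lay below low-load 1 and low-load 3 (log2 fold change 0.88, SE 0.52, edgeR adjusted p 0.336). Cd247, the zeta chain, was at 2.66, 1.28 and 1.63 CPM against 4.87, 4.18 and 2.39 CPM, with low-load 1 above high-load 3 (log2 fold change 1.03, SE 0.38, edgeR adjusted p 0.173). Exons of Cd3e overlap Gm48719 on the opposite strand, and those of Cd247 overlap Gm16565 and Pou2f1. For each of the 4 chains high-load 3 was the lowest of the high-load kidneys.

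The constant regions of the receptor chains had log2 fold changes of 0.43 to 0.83, beside 0.88 to 1.21 for the CD3 chains. Trac, of the alpha chain, was at 5.55, 2.92 and 5.56 CPM in low-load 1 to 3 and 9.45, 8.58 and 4.06 CPM in high-load 1 to 3 (log2 fold change 0.65, SE 0.39, edgeR adjusted p 0.339). Trbc1, of the beta chain, was at 3.38, 2.19 and 2.72 CPM against 4.25, 4.56 and 2.34 CPM (log2 fold change 0.43, SE 0.32, edgeR adjusted p 0.443) and its near copy Trbc2 at 5.55, 1.52 and 3.38 CPM against 7.89, 7.87 and 2.84 CPM (log2 fold change 0.83, SE 0.55, edgeR adjusted p 0.390). For all 3 genes high-load 1 and 2 lay above every low-load kidney and high-load 3 lay below low-load 1 and low-load 3. Trbc1 and Trbc2 share 321 of their 31-base words, 44.8% and 48.5% of each, and the sources used here do not say how reads that match both were counted, so their counts are uncertain. The median log2 fold change of the 3 constant genes was 0.65 and that of the 4 CD3 chains 1.10, a difference that was not tested. Both subsets were named after the values were seen, and Trbc2 (0.83, SE 0.55) lay close to Cd3e (0.88, SE 0.52).

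The coreceptors split the main lineages of T cells, Cd4 of helper and regulatory cells and Cd8a with Cd8b1 of cytotoxic cells. Cd4 (ENSMUSG00000023274, chromosome 6, 124864692 to 124888221, minus strand) was at 6.55, 1.94 and 4.47 CPM in low-load 1 to 3 and 16.0, 8.52 and 5.57 CPM in high-load 1 to 3, highest in high-load 1 and with low-load 1 above high-load 3 (log2 fold change 1.21, SE 0.53, edgeR adjusted p 0.219). Cd8a (ENSMUSG00000053977, chromosome 6, 71373427 to 71379173, plus strand) was at 4.83, 2.37 and 3.38 CPM in low-load 1 to 3 and 6.14, 10.4 and 4.29 CPM in high-load 1 to 3, highest in high-load 2 and with low-load 1 above high-load 3 (log2 fold change 0.98, SE 0.40, edgeR adjusted p 0.201). Cd8b1 was at 1.39, 0.790 and 1.14 CPM against 1.89, 3.20 and 1.73 CPM and its groups did not overlap (log2 fold change 1.03, SE 0.36, edgeR adjusted p 0.159). Per base of exon, the ratio of Cd4 to Cd8a was 1.22, 0.740 and 1.19 in low-load 1 to 3 and 2.35, 0.738 and 1.17 in high-load 1 to 3, so it was highest in high-load 1, the other high-load kidneys lay within the range of the low-load kidneys or just below it, and the groups overlapped. Mouse Cd4 is also made by some dendritic cells and macrophages.

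The T genes with the smallest p were a transcription factor, a surface protein and components of the signalling path below the receptor. Tcf7, a transcription factor of naive and memory T cells (ENSMUSG00000000782, chromosome 11, 52252371 to 52283014, minus strand), was at 5.38, 3.83 and 4.41 CPM in low-load 1 to 3 and 13.2, 9.28 and 7.52 CPM in high-load 1 to 3 (log2 fold change 1.14, SE 0.26, edgeR adjusted p 0.102). Its lowest high-load kidney was at 7.52 CPM, above the 5.38 CPM of its highest low-load kidney. Thy1, a surface protein of T cells that nerve cells and some fibroblasts also carry (ENSMUSG00000032011, chromosome 9, 44043384 to 44048579, plus strand), was at 10.4, 3.89 and 7.46 CPM in low-load 1 to 3 and 20.7, 19.1 and 16.4 CPM in high-load 1 to 3 (log2 fold change 1.37, SE 0.33, edgeR adjusted p 0.111). Lck, the kinase that phosphorylates the CD3 chains (ENSMUSG00000000409, chromosome 4, 129548344 to 129573641, minus strand), was at 7.21, 3.46 and 5.01 CPM in low-load 1 to 3 and 14.9, 11.4 and 8.80 CPM in high-load 1 to 3 (log2 fold change 1.16, SE 0.32, edgeR adjusted p 0.121). Lat, the adaptor that links the receptor to calcium and Ras signals (ENSMUSG00000030742, chromosome 7, 126363824 to 126369570, minus strand), was at 4.94, 3.77 and 3.92 CPM in low-load 1 to 3 and 9.26, 7.003 and 5.79 CPM in high-load 1 to 3 (log2 fold change 0.80, SE 0.24, edgeR adjusted p 0.130). In each of these 4 genes every high-load kidney exceeded every low-load kidney, including high-load 3, and each kept an unadjusted p under 0.05 without high-load 1 and without low-load 2. Without both libraries Lat did not (unadjusted p 0.0644, edgeR). The 4 genes were picked for their small p in the same kidneys, so these points are not separate support. The log2 fold changes of Tcf7, Thy1, Lck and Lat without high-load 1 were 0.89, 1.29, 0.95 and 0.61. Exons of Lck and of Lat each overlap a microRNA gene on the same strand.

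In high-load 3 Thy1 was at 16.4 CPM, near the 19.1 CPM of high-load 2, while the CD3 chains summed to 10.7 CPM in high-load 3 and 22.2 CPM in high-load 2. Thy1 was not alone in this. Lat was at 5.79 CPM in high-load 3 and 7.003 CPM in high-load 2, Tcf7 at 7.52 and 9.28 CPM and Lck at 8.80 and 11.4 CPM. Among 7 nerve and stroma genes listed beside it, 2 of the 6 tested were higher at an unadjusted p under 0.05, Col1a1, a collagen of fibroblasts, at 88.5, 37.9 and 70.2 CPM against 131, 180.5 and 113 CPM and Tubb3, a tubulin of neurons, at 0.499, 0.365 and 0.381 CPM against 0.756, 0.760 and 0.612 CPM. By that rule 14.0% of all genes were higher. In high-load 3 only these 2 of the 6 lay above every low-load kidney. The median log2 ratio of the 6 to the low-load mean was -0.098 in high-load 3. The list's summed level there was 285 CPM, within the low-load range of 204 to 345 CPM. Of the 6 log2 fold changes 5 were above 0, and the lowest was -0.58. The part of nerve and stroma genes in the value of Thy1 was not tested.

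The remaining T genes are receptors and regulators. Ptpn22, a phosphatase that restrains receptor signalling, was at 7.82, 6.50 and 7.35 CPM against 21.8, 13.2 and 8.02 CPM (edgeR adjusted p 0.163), and Cd27, a costimulatory receptor whose ligand is Cd70, at 2.00, 1.15 and 1.63 CPM against 2.93, 3.58 and 2.28 CPM (edgeR adjusted p 0.158). For both genes the groups did not overlap, and an exon of Cd27 overlaps the microRNA gene Mir8113. Cd28, the costimulatory receptor for Cd80 and Cd86, was at 2.22, 0.668 and 1.04 CPM against 5.39, 3.20 and 2.00 CPM and had the largest log2 fold change of the T set, 1.43 (SE 0.54, edgeR adjusted p 0.176), with low-load 1 above high-load 3. Cd6, an adhesion receptor that binds Alcam, was at 2.27, 1.03 and 1.74 CPM against 5.86, 5.05 and 2.06 CPM, and Cd5, an inhibitory receptor, at 2.94, 1.09 and 1.36 CPM against 4.92, 3.80 and 2.00 CPM. In both, low-load 1 lay above high-load 3. Cd2, which binds Cd48 in the mouse, was at 4.05, 2.01 and 4.09 CPM against 15.9, 6.13 and 3.62 CPM and lay far higher in high-load 1 than in the other 5 kidneys. Il7r, the receptor for the survival cytokine interleukin 7, was at 7.599, 3.34 and 5.67 CPM against 12.8, 8.85 and 5.68 CPM, with low-load 1 above high-load 3. Across the 21 T genes log2 fold changes ran from 0.43 (Trbc1) to 1.43 (Cd28), and edgeR adjusted p from 0.102 to 0.443.

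As a set the T genes were graded across kidneys rather than split by group. The median over the 21 genes of the log2 ratio to the low-load mean (0.1 CPM added to each) was 0.41, -0.65 and 0.03 in low-load 1 to 3 and 1.40, 1.12 and 0.28 in high-load 1 to 3. High-load 3 lay below low-load 1. High-load 1 and 2 exceeded every low-load kidney in all 21 genes, and high-load 3 did so in 8. Low-load 2 had the lowest value of the 6 kidneys in all 21. The median log2 fold change of 1.03 was 0.82 without high-load 1, 0.84 without low-load 2 and 0.58 without both.

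In the NK and cytotoxic set the groups of every gene overlapped, and high-load 3 exceeded all low-load kidneys in 0 of the 6 tested genes. Il2rb, the receptor chain through which NK cells and cytotoxic T cells take up interleukin 2 and 15 signals (ENSMUSG00000068227, chromosome 15, 78479256 to 78495271, minus strand), was at 8.10, 3.89 and 6.21 CPM in low-load 1 to 3 and 20.04, 12.9 and 6.51 CPM in high-load 1 to 3 (log2 fold change 1.12, SE 0.45, edgeR adjusted p 0.192). It was the only member of the set with an unadjusted p under 0.05. Ccl5, a chemokine that NK and memory T cells secrete and macrophages can make, was at 11.1, 2.73 and 7.79 CPM in low-load 1 to 3 and 24.6, 16.3 and 7.68 CPM in high-load 1 to 3 (log2 fold change 1.16, SE 0.58, edgeR adjusted p 0.263). Nkg7, a protein of cytotoxic granules, was at 5.10, 1.70 and 2.94 CPM against 10.4, 7.06 and 3.79 CPM (log2 fold change 1.12, SE 0.50, edgeR adjusted p 0.224). For Il2rb, Ccl5 and Nkg7 high-load 1 and 2 lay above every low-load kidney while high-load 3 lay below low-load 1.

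Transcripts of the killing machinery were scarce in every kidney. Prf1, perforin, was at 0.777, 0.729 and 0.926 CPM against 1.75, 1.52 and 0.779 CPM (log2 fold change 0.73, SE 0.37, edgeR adjusted p 0.266), and Klrd1, the CD94 chain of an NK receptor, at 1.89, 0.851 and 1.36 CPM against 1.84, 3.58 and 1.17 CPM (log2 fold change 0.68, SE 0.49, edgeR adjusted p 0.423). Gzmb, granzyme B, was at 2.16, 0.608 and 0.926 CPM against 1.65, 0.706 and 0.278 CPM and was the only tested lymphocyte gene with a log2 fold change below 0 (log2 fold change -0.47, SE 0.71, edgeR adjusted p 0.715). Gzma, granzyme A, was below the filter, with raw counts of 0, 1 and 15 in the low-load kidneys and 15, 8 and 3 in the high-load kidneys, and a count of 0 allows up to 3. At this depth no difference was detectable for Gzma, and in the 6-kidney fit without a filter its log2 fold change was 0.56 (SE 1.13, edgeR adjusted p 0.821). Of the 6 tested genes of the set, 0 had groups without overlap. The set's median log2 ratio to the low-load mean was 0.53, -0.76 and 0.01 in low-load 1 to 3 and 1.33, 1.09 and 0.02 in high-load 1 to 3, so that high-load 3 lay level with low-load 3. The median log2 fold change of 0.93 was 0.71 without high-load 1 and 0.72 without low-load 2 over the same 6 genes, and 0.66 with Gzma, which passed the filter there.

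B cell genes had the largest fold changes of the 3 sets, and a single kidney carried most of them. Cd79a, a signalling chain of the B cell receptor (ENSMUSG00000003379, chromosome 7, 24897381 to 24902197, plus strand), was at 5.66, 5.04 and 4.79 CPM in low-load 1 to 3 and 63.1, 11.7 and 7.01 CPM in high-load 1 to 3 (log2 fold change 2.40, SE 0.82, edgeR adjusted p 0.157). Its groups did not overlap, and without high-load 1 its log2 fold change was 0.86 (unadjusted p 0.0137, edgeR). Its partner Cd79b (ENSMUSG00000040592, chromosome 11, 106311341 to 106314762, minus strand) was at 4.66, 4.56 and 3.49 CPM in low-load 1 to 3 and 30.5, 6.19 and 3.79 CPM in high-load 1 to 3 (log2 fold change 1.68, SE 0.76, edgeR adjusted p 0.233), and 0.24 on the log2 scale without high-load 1. Cd22, an inhibitory receptor of B cells (ENSMUSG00000030577, chromosome 7, 30865402 to 30880342, minus strand), was at 5.71, 2.55 and 3.98 CPM in low-load 1 to 3 and 60.5, 6.57 and 3.62 CPM in high-load 1 to 3 (log2 fold change 2.53, SE 1.07, edgeR adjusted p 0.208). High-load 1 was 11.9 times the mean of the other high-load kidneys for Cd22, and the log2 fold change without it was 0.32. Cd37, a tetraspanin of B cells and other leukocytes, was at 10.4, 6.81 and 7.35 CPM against 58.0, 14.3 and 8.74 CPM (log2 fold change 1.73, SE 0.69, edgeR adjusted p 0.195), and its log2 fold change was 0.50 without high-load 1. Exons of Cd22 and Cd37 overlap those of Gm29439 and Tead2 on the opposite strand, and the sources used here do not say whether reads were counted by strand.

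Ms4a1, Pax5 and Fcmr, singled out after their values were seen, had fold changes whose sign depended on 1 library. Ms4a1, the surface protein CD20, was at 3.00, 0.972 and 2.94 CPM against 28.0, 2.82 and 1.34 CPM. High-load 3 was below low-load 1 and low-load 3, and the log2 fold change of 2.22 became -0.15 without high-load 1. Pax5, the transcription factor that holds B cell identity and whose exons overlap a pair of predicted genes on the opposite strand, was at 1.55, 0.425 and 1.20 CPM against 14.9, 1.41 and 0.612 CPM, with log2 fold changes of 2.41 with and -0.07 without high-load 1. Fcmr, the receptor for immunoglobulin M, was at 3.38, 2.61 and 1.58 CPM against 27.6, 3.26 and 1.34 CPM, with 2.09 and -0.13 on the same scale. The edgeR adjusted p of the 3 genes were 0.276, 0.262 and 0.275. Over Cd22, Cd79a, Cd79b, Ms4a1, Pax5 and Fcmr, which mark B cells before the plasma cell stage, summed levels were 24.0, 16.2 and 17.98 CPM in low-load 1 to 3 and 225, 32.0 and 17.7 CPM in high-load 1 to 3. High-load 3 thus lay within the range of the low-load kidneys.

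The last 3 genes of the set act around B cells or in plasma cells. Ltb, lymphotoxin beta, a cytokine of B cells, T cells and NK cells that organises lymphoid tissue (ENSMUSG00000024399, chromosome 17, 35194439 to 35196320, plus strand), was at 5.94, 3.71 and 3.87 CPM in low-load 1 to 3 and 26.8, 11.6 and 7.35 CPM in high-load 1 to 3 (log2 fold change 1.76, SE 0.50, edgeR adjusted p 0.126). Every high-load kidney exceeded every low-load kidney, and without high-load 1 its log2 fold change was 1.08 (unadjusted p 0.0111, edgeR). Mzb1, a chaperone of antibody-secreting and marginal zone B cells, was at 12.2, 15.8 and 10.9 CPM in low-load 1 to 3 and 59.5, 18.9 and 12.8 CPM in high-load 1 to 3, where low-load 2 lay above high-load 3 (log2 fold change 1.23, SE 0.56, edgeR adjusted p 0.233). An exon of Mzb1 overlaps SPATA24 on the same strand. Tnfrsf17, the receptor BCMA that supports plasma cell survival, was below the filter, with raw counts of 3, 6 and 5 in the low-load kidneys and 22, 18 and 4 in the high-load kidneys. High-load 1 and 2 lay above the low-load kidneys for this gene, and high-load 3 did not. Tnfrsf17 was not tested in the filtered 6-kidney comparison. In the fit without a filter its log2 fold change was 1.47 (SE 0.64, edgeR adjusted p 0.276).

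Across the 9 tested B genes the median log2 ratio to the low-load mean was 0.37, -0.26 and -0.15 in low-load 1 to 3 and 3.40, 0.54 and -0.16 in high-load 1 to 3. High-load 1 had the highest value in 9 of 9, high-load 2 exceeded all low-load kidneys in 6 and high-load 3 in 2. The median log2 fold change was 2.09 over all kidneys, 1.85 without low-load 2 over the same 9 genes (1.80 with Tnfrsf17, which passed the filter there), and 0.29 without high-load 1. The plot of fold changes shows this shift gene by gene. The SE of the B genes with all 6 kidneys ran from 0.50 (Ltb) to 1.19 (Pax5), against 0.24 (Lat) to 0.58 (Cd2) in the T set.

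**Figure D2:**
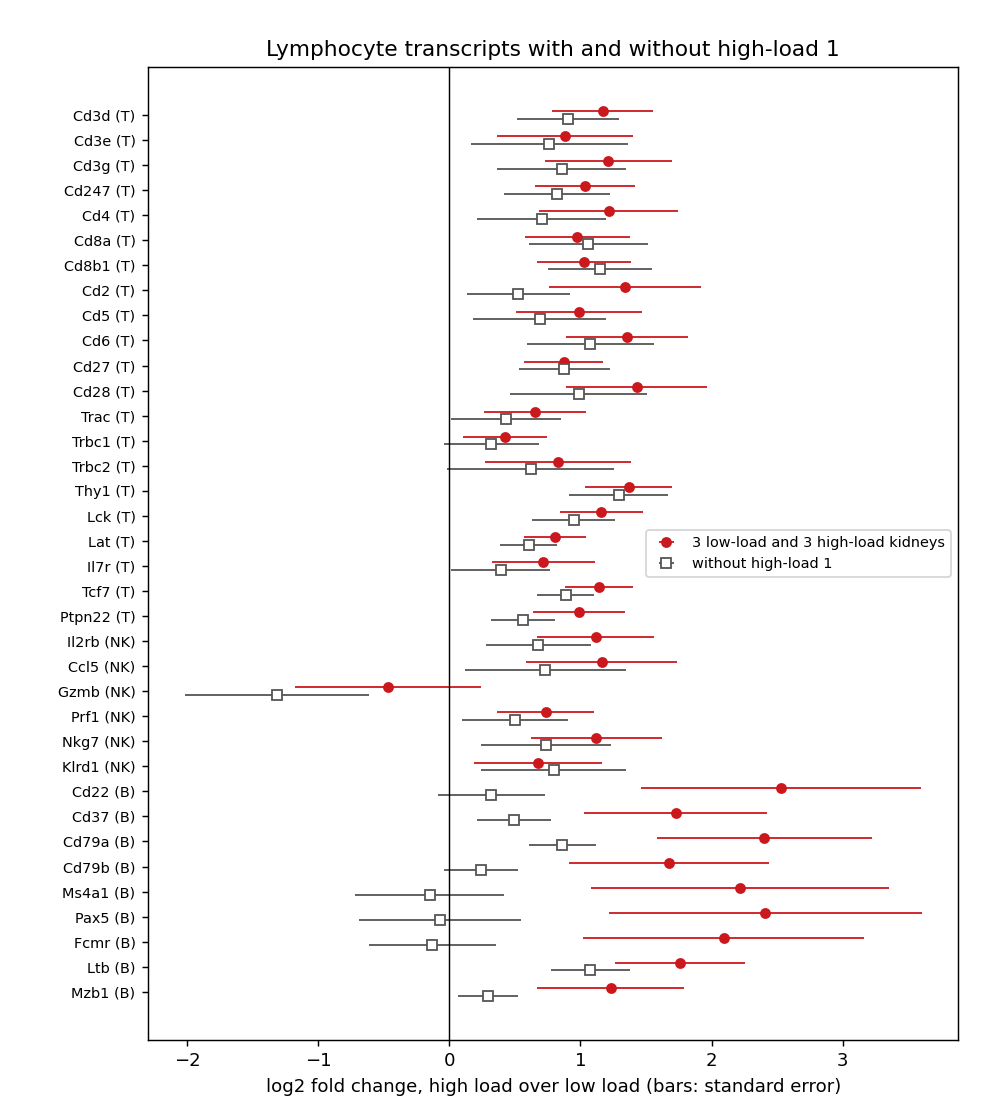
Log2 fold change of high over low load for the 36 tested lymphocyte genes (points, with bars of 1 standard error from edgeR), with all 6 kidneys in red and without high-load 1 as open squares; the set of each gene stands in brackets. Most T genes move less when high-load 1 is left out (Thy1 from 1.37 to 1.29), whereas B genes move to between -0.15 (Ms4a1) and 0.50 (Cd37), with Ltb (1.08) and Cd79a (0.86) as exceptions.

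Levels can be compared between genes only per length of exon, here as CPM per kilobase. The most abundant lymphocyte transcript in both groups was Mzb1, at 10.7 ± 2.07 (SD, n = 3) in low-load and 25.01 ± 20.9 (SD, n = 3) in high-load kidneys. Ccl5 was next in low-load kidneys, at 7.53 ± 4.41 against 16.9 ± 8.80 CPM per kilobase, and Cd79a reached 18.7 ± 21.4 at high load from 3.55 ± 0.305. Trbc2 and Trac led the T set at 5.03 ± 2.91 and 5.00 ± 1.63 in low-load and 8.96 ± 4.21 and 7.88 ± 3.09 in high-load kidneys. Pax5 was lowest among tested genes in low-load kidneys, at 0.120 ± 0.0651. The SD was above the mean for Cd79a and below it for Trac at high load.

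Genes found in all leukocytes were higher at high load as well. All 14 listed, which include the leukocyte phosphatase Ptprc (CD45), the tetraspanin Cd53 and the actin bundler Lcp1, had an unadjusted p under 0.05 and groups without overlap, and 0 passed the adjusted test in edgeR. Their median log2 fold change was 1.06, and the higher and lower genes numbered 13 and 0 without high-load 1 (median 0.61) and 10 and 0 without low-load 2 (median 0.92). Of all genes, 14.0% were higher at that p over all kidneys, 10.6% without high-load 1 and 9.84% without low-load 2. In 17.1% of all genes the high-load kidneys lay above the low-load kidneys without overlap. Ptprc was at 41.8, 27.4 and 36.1 CPM in low-load 1 to 3 and 83.6, 59.1 and 47.0 CPM in high-load 1 to 3 (log2 fold change 0.85, SE 0.24, edgeR adjusted p 0.129). Cd53 was at 19.7, 14.1 and 18.2 CPM against 58.1, 29.97 and 37.5 CPM and Lcp1 at 72.2, 56.8 and 72.8 CPM against 144, 100.5 and 101 CPM, with edgeR adjusted p of 0.0967 and 0.102. The summed level of the 14 was 394, 288 and 364 CPM in low-load 1 to 3 and 962, 550.4 and 529 CPM in high-load 1 to 3.

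Set against that sum, the groups overlapped in all 3 sets. Summed T transcripts were 24.6, 16.5 and 20.3% of the leukocyte sum in low-load 1 to 3 and 20.7, 28.3 and 18.1% in high-load 1 to 3. For the NK set these were 7.41, 3.67 and 5.76% and 6.34, 7.73 and 3.85%. In both sets low-load 2 had the lowest percentage, and high-load 2 the highest. Summed B transcripts were 13.4, 14.9 and 11.1% in low-load 1 to 3 and 38.5, 14.1 and 8.85% in high-load 1 to 3, so that high-load 1 alone lay outside the range of 8.85 to 14.9% of the other 5 kidneys. The ratio of summed B to summed T transcripts was 0.544, 0.899 and 0.546 in low-load 1 to 3 and 1.86, 0.498 and 0.490 in high-load 1 to 3. Apart from high-load 1, the highest B to T ratio was that of low-load 2. These percentages compare sums over different genes and are not shares of cells, and their differences between groups were not tested.

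**Figure D3:**
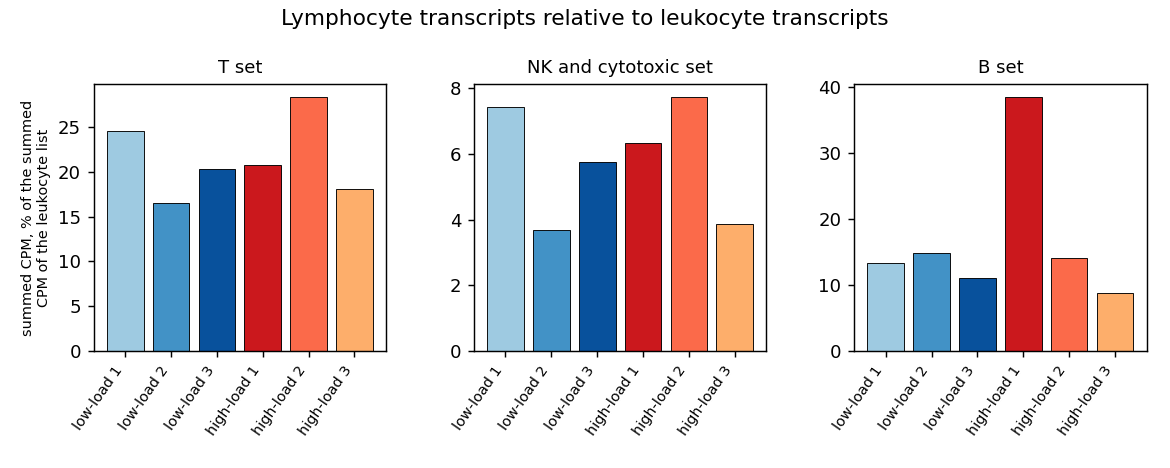
Summed CPM of the T set, the NK and cytotoxic set and the B set as a percentage of the summed CPM of 14 genes found in all leukocytes, 1 bar per kidney (no error bars, since each bar is 1 library). The groups overlap in the T set (16.5 to 28.3%), and in the B set high-load 1 stands apart at 38.5%.

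Other genes of these lineages were counted by the same rules. Of all genes tested, 14.0% were higher and 10.2% lower at an unadjusted p under 0.05. Without overlap between the groups, 17.1% were higher and 15.8% lower. At that p 10.6% were higher without high-load 1 and 9.84% without low-load 2. The counts of every list below are to be read against these shares. Of 21 tested genes of T receptor signalling outside the member list, 7 were higher and 0 lower at an unadjusted p under 0.05, 6 did not overlap, and the median log2 fold change was 0.95. These counts of higher and lower genes were 4 and 0 without high-load 1 (median 0.72) and 5 and 1 without low-load 2 (median 0.70). Lcp2, the adaptor SLP-76 that works with Lat, was at 8.49, 4.31 and 7.41 CPM against 17.96, 14.1 and 12.3 CPM (edgeR adjusted p 0.111), and Ubash3a, a suppressor of receptor signalling, at 1.109, 0.425 and 0.599 CPM against 1.65, 2.39 and 1.61 CPM (edgeR adjusted p 0.129). Of 20 tested genes of T differentiation and checkpoints, 9 were higher and 0 lower, 4 did not overlap, and the median was 0.96, with 3 and 1 without high-load 1 (median 0.60) and 3 and 0 without low-load 2 (median 0.72). Tox, a factor of exhausted and memory T cells, was at 4.10, 2.86 and 3.38 CPM against 7.61, 6.79 and 5.68 CPM, and Foxp3, the factor of regulatory T cells, at 0.777, 0.790 and 0.926 CPM against 1.84, 2.01 and 1.45 CPM, with edgeR adjusted p of 0.102 and 0.111. In both genes, as in Tcf7, every high-load kidney exceeded every low-load kidney. Of 6 tested genes listed for gamma-delta T cells 0 were higher and 1 was lower, Sox13 at 51.2, 49.8 and 54.8 CPM against 43.9, 47.5 and 39.1 CPM. Their median log2 fold change was 1.106, with counts of 0 and 0 without high-load 1 (median -0.07) and 0 and 1 without low-load 2 (median 0.93). Without overlap 0 were higher and 1 lower. Sox13 made up most of the summed level of this list, 56.2, 54.6 and 60.0 CPM against 79.4, 55.2 and 42.0 CPM. It exceeded every CD3 chain in each kidney, and whether it reports gamma-delta T cells here was not tested. The kinase Blk, listed for gamma-delta T cells and among B genes, was at 1.55, 1.22 and 1.31 CPM against 22.2, 2.06 and 0.891 CPM.

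Of 13 tested NK and cytotoxic genes outside the member list, 5 were higher and 0 lower at an unadjusted p under 0.05, 5 did not overlap, and the median log2 fold change was 0.90. The higher and lower genes numbered 3 and 0 without high-load 1 (median 0.71) and 2 and 0 of 14 tested without low-load 2 (median 0.60 over the 13 genes above). The all-gene shares higher at that p were 14.0%, 10.6% without high-load 1 and 9.84% without low-load 2, and 17.1% were higher without overlap. Serpinb9, an inhibitor of granzyme B that cells other than lymphocytes also make, was at 34.1, 28.9 and 37.5 CPM in low-load 1 to 3 and 89.1, 63.0 and 79.2 CPM in high-load 1 to 3 (log2 fold change 1.20, SE 0.16, edgeR adjusted p 0.0772). Ccl4, a chemokine of NK cells, T cells and macrophages, was at 0.998, 0.790 and 0.872 CPM against 3.64, 2.06 and 2.17 CPM (edgeR adjusted p 0.0967). The defining NK receptor Ncr1, looked up for that role, did not exceed 0.365 CPM in any kidney.

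Of 20 tested B lineage genes outside the member list, 9 were higher and 0 lower, 4 did not overlap, and the median log2 fold change was 1.56. Higher and lower B lineage genes numbered 2 and 0 without high-load 1 (median 0.41) and 2 and 0 without low-load 2 (median 1.33). For both lists of this paragraph the rule was an unadjusted p under 0.05, which 14.0% of all genes passed as higher. That share was 10.6% without high-load 1 and 9.84% without low-load 2, and 17.1% were higher without overlap. Pou2af1, a coactivator of immunoglobulin transcription, was at 7.10, 6.44 and 5.99 CPM in low-load 1 to 3 and 42.4, 15.6 and 11.7 CPM in high-load 1 to 3 (log2 fold change 1.84, SE 0.48, edgeR adjusted p 0.118), and Blnk, the adaptor downstream of CD79 that macrophages also make, at 25.5, 35.4 and 20.5 CPM against 67.2, 34.7 and 49.4 CPM (edgeR adjusted p 0.145). Of 18 tested plasma cell and immunoglobulin genes, 10 were higher and 0 lower, 10 did not overlap, and the median was 1.42, with 10 and 0 without high-load 1 (median 0.96) and 7 and 0 without low-load 2 (median 1.56). Derl3, a protein of the secretory pathway in plasma cells, was at 3.88, 4.31 and 3.43 CPM against 17.2, 10.9 and 7.13 CPM, and Igkc, the kappa light chain constant region, at 687, 881 and 419.6 CPM against 2272, 1958 and 1388 CPM, with edgeR adjusted p of 0.0967 and 0.0981. For Derl3 and Igkc every high-load kidney exceeded every low-load kidney.

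Ligands and partners of the member receptors were examined next. Of 21 tested, 13 were higher and 0 lower at an unadjusted p under 0.05, 12 did not overlap, and the median log2 fold change was 0.83. Higher and lower ones numbered 10 and 0 without high-load 1 (median 0.57) and 9 and 0 without low-load 2 (median 0.70). The all-gene shares higher at that p were 14.0%, 10.6% without high-load 1 and 9.84% without low-load 2, and 17.1% were higher without overlap. B2m, the light chain of the MHC class I molecules that CD8 T cells read, was at 525, 428 and 475 CPM against 974, 903 and 681 CPM. Its edgeR adjusted p was 0.0984, and its groups did not overlap. Of 13 tested lymphoid stroma and homing genes, 6 were higher and 2 lower, and the median was 0.56, with 5 and 1 without high-load 1 (median 0.31) and 5 and 0 of 14 tested without low-load 2 (median 0.44 over the 13 genes above). Without overlap 7 were higher and 1 lower, against 17.1 and 15.8% of all genes. The list was mixed, with 9 of the 13 log2 fold changes above 0 and a range of -0.92 to 2.98. The genes named next are among the higher ones. Cxcl16, a ligand of the chemokine receptor Cxcr6, was at 55.3, 45.5 and 53.1 CPM against 96.4, 81.8 and 87.7 CPM, and Cxcl9, an interferon-induced ligand of Cxcr3 on T cells, at 7.71, 2.31 and 4.03 CPM against 34.8, 30.2 and 15.9 CPM, with edgeR adjusted p of 0.0784 and 0.0946. Cxcl13, the chemokine that draws B cells into follicles, chosen after its values were seen, was at 5.49, 4.07 and 2.94 CPM in low-load 1 to 3 and 78.1, 10.2 and 10.1 CPM in high-load 1 to 3. It was far highest in high-load 1, and its groups did not overlap.

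**Figure D4:**
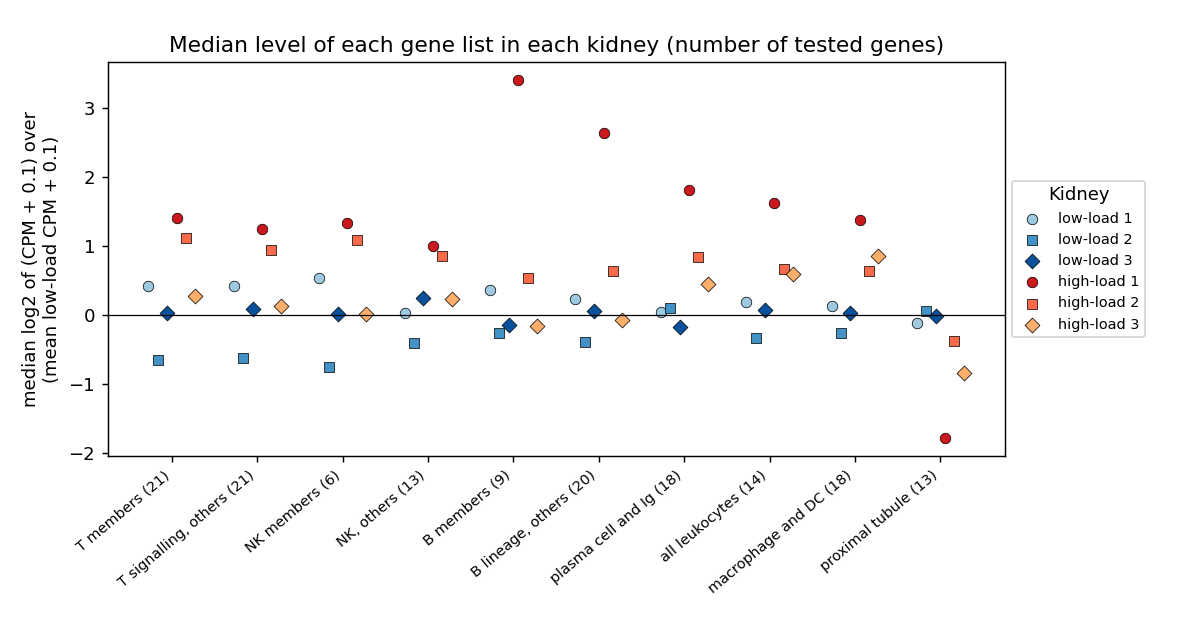
Median over the tested genes of each list of the log2 ratio of CPM + 0.1 to the low-load mean + 0.1, 1 point per kidney, with the number of tested genes after the list's name; blue points are low-load and red to orange points high-load kidneys. High-load 1 stands at 3.40 for the B members and 1.40 for the T members, high-load 3 at -0.16 and 0.28, and the proximal tubule list lies lower in all 3 high-load kidneys.

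Markers of other cells were also unevenly spread over the kidneys. Of all genes, 14.0% were higher and 10.2% lower at an unadjusted p under 0.05, and without overlap 17.1% were higher and 15.8% lower. Of 18 macrophage and dendritic cell genes, all tested, 13 were higher at an unadjusted p under 0.05 and 12 did not overlap, with 12 and 0 without high-load 1 (median 0.73) and 10 and 2 without low-load 2 (median 0.85) higher and lower, and their summed level was 661, 524 and 649.7 CPM against 1696, 887 and 1153 CPM. Proximal tubule genes (13 of 13 tested) summed to 16332, 18561 and 17558 CPM against 4795, 13515 and 9597 CPM, with 0 higher and 6 lower at that p, and in 9 all high-load kidneys lay below all low-load kidneys. Higher and lower tubule genes numbered 0 and 6 without high-load 1 (median -0.59) and 0 and 2 without low-load 2 (median -0.79). Among perirenal fat genes 2 of 7 were tested, the sums were 88.3, 67.1 and 78.2 CPM against 128, 96.4 and 51.3 CPM, and the defining fat gene Adipoq was at 0.0555, 0 and 0.545 CPM against 11.2, 3.58 and 0.111 CPM. Neutrophil genes, of which 4 of 10 were tested, summed to 8.21, 29.4 and 7.95 CPM against 23.9, 10.6 and 38.5 CPM. Red cell and platelet genes summed to 206, 2007 and 219.7 CPM against 337, 166 and 85.7 CPM, high in low-load 2, the kidney with the lowest T values. Of the adrenal cortex list, 1 of 6 genes was tested, the sums were 7.46 to 8.65 CPM and 5.46 to 8.74 CPM, and the defining genes Cyp11b1 and Cyp11b2 were at 0 in all 6 kidneys. Endothelial genes, 7 of 7 tested, summed to 581, 545 and 702 CPM against 357, 650.4 and 422 CPM, and nerve and stroma genes, 6 of 7, to 314, 204 and 345 CPM against 402, 510.0 and 285 CPM. Mast cell and basophil genes, 1 of 7 tested, summed to 22.5, 19.1 and 27.6 CPM against 29.1, 30.7 and 28.2 CPM. The part of these cell types, of depth and of each library in the lymphocyte values was not tested.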

How the data were processed

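The authors deposited raw counts for each Ensembl gene ID in each of the 6 kidneys, as a single table. Per the labels' protocols, RNA was extracted with TRIzol, prepared with an Illumina TruSeq kit and sequenced as paired reads on a DNBSEQ instrument. The build mm10, featureCounts 2.0.1, HISAT2 2.2.1, fastp 0.23.2, SAMtools 1.11 and edgeR are listed in the submitters' processing notes. The sources used here do not give the annotation, the strand setting or the treatment of multi-mapping reads, so genes with overlapping exons or near copies have uncertain counts. Of the 38 lymphocyte genes, 9 have an exon that overlaps another gene.

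Symbols, positions and exon lengths came from GENCODE M21 for mm10, which matched 32235 of 32285 IDs. Groups and replicate numbers came from the titles. The genotype labels speak of a mouse for each library, and libraries were treated as separate animals. The 6 pairs of libraries within groups differed by 19.98 to 93.1 times counting noise, measured by a chi-square divided by its degrees of freedom, and none of these pairs agreed within sampling noise.

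Counts were filtered with filterByExpr (minimum count 10), scaled by TMM and fitted by group with edgeR 4.0.16 (R 4.3.3, robust quasi-likelihood F test, two-sided). Benjamini-Hochberg adjustment ran over all 15955 genes tested, with a threshold of 0.05. Standard errors were derived from the F statistic, and the script was tested on simulated data. Median ratios per kidney used 0.1 CPM added to each level. Alternatives used DESeq2 1.42.0, limma 3.58.1 (voom), other scaling and filters, load as a number, a replicate block and each library left out.

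The members and lists were chosen with earlier results of these data known. Named in full were the CD3, receptor constant and CD79 genes, Cd4, Cd8a, Cd8b1 and the 5 tested genes of each set with the smallest p. Of each list of other genes the 2 with the smallest p were named, and Ptprc; 1 of these genes is not reported here. Marker lists of other cell types are given by their sums. Promoters came from RefSeq. Protein sequences were not used here.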

Additional observations from a re-analysis of the deposited data

How the results depend on the processing

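With 3 kidneys per group an exact permutation test of 1 gene cannot give a two-sided p below 0.1, and p-values rest on spread shared across genes. The number of lymphocyte genes past an adjusted p of 0.05 was 0 in edgeR and limma-voom under every setting run, and 5 with DESeq2. The number higher at an unadjusted p under 0.05 was 17, with 25 in DESeq2, 11 in limma-voom (all-gene shares of 14.0, 13.7 and 13.0%), 5 without both high-load 1 and low-load 2 (chosen after seeing the data), and 5 to 32 with 1 library left out. Leaving out low-load 2 gave 5 of 38 tested genes, low-load 3 gave 6 and high-load 1 gave 8 of 36. Leaving out high-load 2 gave 10 of 37 and high-load 3 gave 32 of 38. In this order 9.84, 9.38, 10.6, 15.9 and 12.0% of all genes were called. Genes whose groups did not overlap numbered 10 (17.1% of all genes), and 10 to 32 with 1 library left out. There were 20 of 38 tested without low-load 1 and 32 of 38 without high-load 3, against 21.9 and 21.4% of all genes. The B median log2 fold change was 2.09, 0.29 without both libraries, 1.32 in limma-voom, and 0.29 (without high-load 1) to 2.53 with 1 left out. The T median stayed between 0.82 and 1.33, and the NK median between 0.65 and 1.00, with 1 left out. The NK values of 0.65 (without high-load 2) and 1.00 (without high-load 3) cover 7 genes, with Gzma past the filter. The NK median of 0.93 with all kidneys covers 6. The cause of these shifts was not tested.

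Signs reversed for Ms4a1 (-0.51), Pax5 (-0.44) and Fcmr (-0.11) without both libraries. With 1 library left out the ranges were -0.15 to 2.74 for Ms4a1, -0.070 to 2.93 for Pax5, -0.13 to 2.61 for Fcmr and -1.31 to 0.20 for Gzmb, whose value of 0.20 came without low-load 1. Scaling by library totals moved the median of all genes to 0.13 and left 10 genes without overlap. With the replicate block 15 genes were higher at an unadjusted p under 0.05, against 12.6% of all genes, 0 passed the adjusted test, and the B median was 1.33. Deviations of same-numbered libraries correlated at 0.12, -0.18 and 0.05, not every library correlated best with its own number, and the numbers were not taken as pairs.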
